A study of Mus musculus with 114 samples.

Results

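The 8 genes described here carry the noradrenaline signal in fat cells: the adrenergic receptors Adrb1, Adrb3, Adra2a and Adra1a, the stimulatory G protein subunit Gnas, the protein kinase A (PKA) subunits Prkar2b and Prkaca, and the phosphodiesterase Pde3b. They are defined by their symbols, and all 8 were found among the 29132 genes of the expression values. RNA was sequenced from the adipocyte fraction of perigonadal white adipose tissue, which is the fraction that floats after collagenase digestion of the fat pad. The mice were male C57BL/6J, were put at 6 weeks of age on control chow (CD) or on high fat food (HFD), and were fasted before tissue was taken. There were 6 CD and 6 HFD mice at 8 weeks on the diet, 6 and 6 at 20 weeks, and 8 and 6 at 34 weeks, 38 in all. Age and time on the diet are the same variable in this design and cannot be told apart. The control chow was 1 of 2 purified diets, and the sources used here do not say which mouse received which.

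Noradrenaline released by sympathetic nerves binds beta-adrenergic receptors on the adipocyte, which activate adenylyl cyclase through the stimulatory G protein. The cAMP so formed releases the catalytic subunits of PKA from their regulatory subunits, and PKA phosphorylates hormone-sensitive lipase and perilipin to start lipolysis. Alpha-2 receptors oppose the cyclase through inhibitory G proteins, alpha-1 receptors act through calcium, and PDE3B degrades cAMP and is the phosphodiesterase through which insulin restrains lipolysis.

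Levels are given in CPM, the reads of a gene scaled so that all listed genes of a mouse sum to 1000000. Each mouse had 9275711 to 15480388 reads on genes (median 12522298), so that 1 read was worth 0.0646 to 0.108 CPM. At 8 weeks the HFD libraries were all deeper than the CD libraries (13201234 to 15480388 against 10562845 to 12611013 reads). Depth also differed between times. The CD libraries at 20 weeks (13091365 to 14292115) were all deeper than those at 8 weeks and at 34 weeks (9275711 to 12433584). The HFD libraries at 8 weeks and at 20 weeks (13159018 to 14961360) were all deeper than those at 34 weeks (10714545 to 12271651). The part of depth in the differences by diet and by time was not tested. Adipocyte markers were high in every mouse, with a mean log2(CPM + 1) over 7 genes of 10.4 to 11.9. The mean over 11 macrophage markers was 4.44 to 6.62, 5.01 to 7.76 and 5.84 to 9.40 in CD mice at 8, 20 and 34 weeks, against 5.99 to 7.44, 8.09 to 9.08 and 8.18 to 9.71 in HFD mice, and no marker of that list was at 0. Of the 11 macrophage markers, 8, 9 and 11 rose with HFD at the 3 times and none fell, whereas 0, 5 and 6 of the 7 adipocyte markers fell and none rose. Other cell types moved too: 7, 5 and 6 of 7 endothelial markers, 5, 7 and 4 of 7 tested progenitor and fibroblast markers and 5, 4 and 3 of 6 mural markers rose with HFD, and none of these fell. The part of these cells in the results was not tested. In such RNA, fewer cells of a type and less RNA per cell cannot be told apart. Th and Dbh, the enzymes of noradrenaline synthesis, had no read in any mouse.

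The genes differed widely in level. Per kilobase of exon, the mean over all mice was 220 CPM for Prkar2b, 139 for Adrb3, 81.2 for Gnas, 69.1 for Prkaca, 53.0 for Pde3b, 2.07 for Adra1a, 0.584 for Adrb1 and 0.0618 for Adra2a. Adrb3 therefore stood far above Adra1a, Adrb1 and Adra2a per length. Adrb1 (5 to 49 reads per mouse) and Adra2a (0 to 14 reads) were too low for the test across genes, which used genes with a mean log2(CPM + 1) above 2 and was thus run on 6 of the 8. Exons of Adrb3 and Gnas overlap genes on the opposite strand in GENCODE M21 (Gm45470 at Adrb3, Gm20721 and Nespas at Gnas). The library kit was stranded, but the counting is not stated to use strand. It kept reads that overlapped a gene unambiguously, so reads of such pairs may be lost or mixed. The counts used GENCODE vM2, whose overlaps were not examined.

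**Figure D1:**
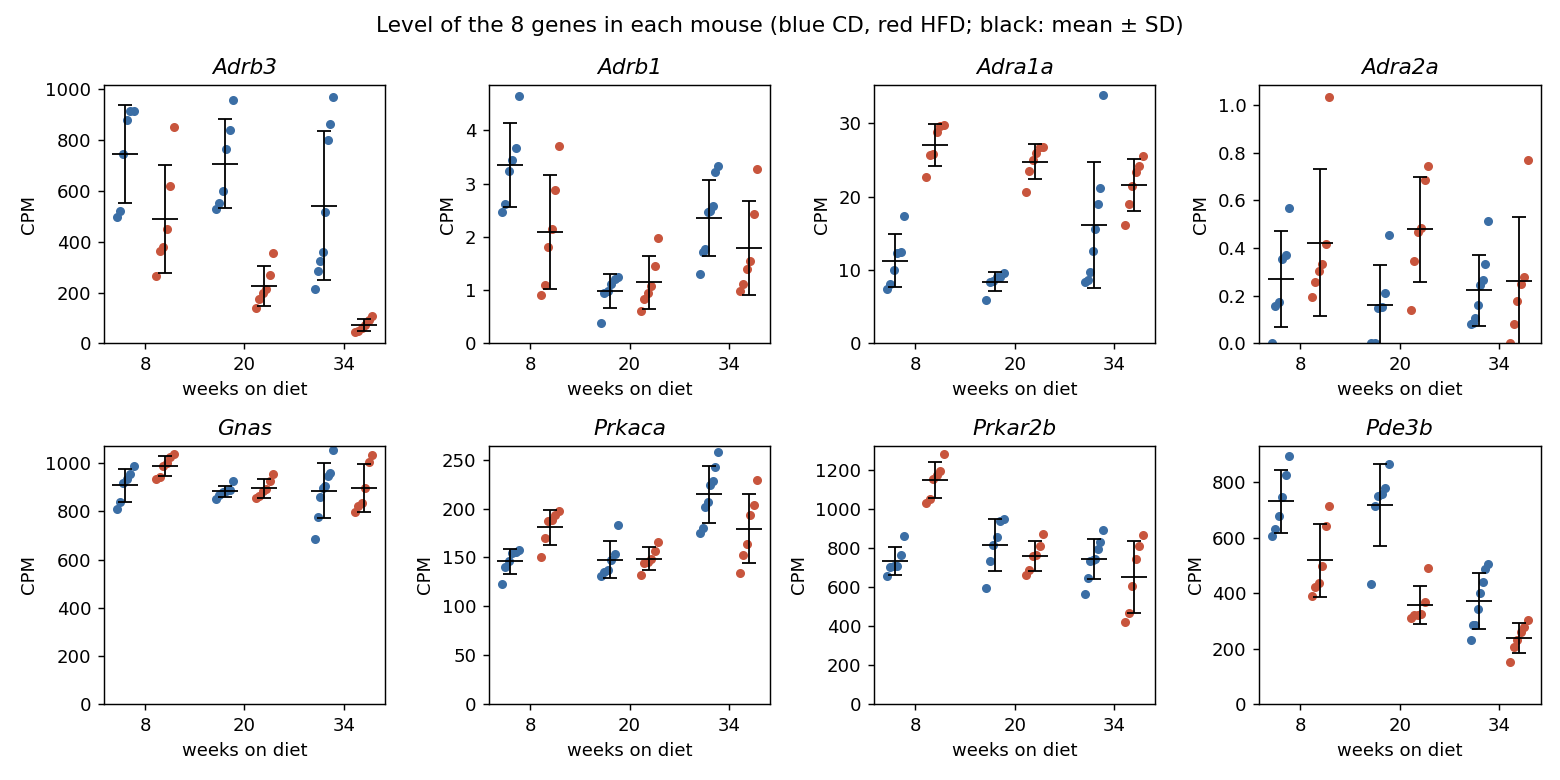
CPM of the 8 genes (y axes, linear, from 0) by weeks on the diet (x axes), 1 point per mouse ordered by value within its group, with CD in blue and HFD in red and the mean ± SD in black. Adrb3 in HFD mice fell from a mean of 489 CPM at 8 weeks to 71.8 CPM at 34 weeks, Prkar2b was highest in HFD mice at 8 weeks, and Gnas lay at nearly the same level in all 6 groups.

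RefSeq promoter windows on GRCm38.p6 were on hand for 5 of the 8 genes (10 windows). These letters were searched in the 250 bases before each start: the short motif of the cAMP response element (CRE), TGACG or, on the other strand, CGTCA, and the GC box GGGCGG or CCGCCC. The windows of Prkaca, which rose with time on chow, and of Adrb1, which was lower at 20 than at 8 weeks on chow, are shown as those of 2 members whose levels differed between times on chow, with the motif matches in capitals. Prkaca lies on the plus strand and its window is chr8:83972728-83972977, and that of Adrb1, also on the plus strand, is chr19:56721867-56722116.
Prkaca: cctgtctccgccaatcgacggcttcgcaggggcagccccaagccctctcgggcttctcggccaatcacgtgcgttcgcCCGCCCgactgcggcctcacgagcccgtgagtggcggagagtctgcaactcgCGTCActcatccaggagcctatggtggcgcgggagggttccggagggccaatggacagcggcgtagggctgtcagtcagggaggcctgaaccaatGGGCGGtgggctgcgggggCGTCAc
Adrb1: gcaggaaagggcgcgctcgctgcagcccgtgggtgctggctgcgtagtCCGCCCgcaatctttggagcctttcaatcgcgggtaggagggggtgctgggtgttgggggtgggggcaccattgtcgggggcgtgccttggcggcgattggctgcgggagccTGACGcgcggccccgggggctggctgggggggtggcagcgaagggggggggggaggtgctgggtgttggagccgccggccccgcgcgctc

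The Prkaca window held 2 short CRE motifs and 2 GC boxes, and the Adrb1 window 1 of each. Over the 10 windows, 6 held a short CRE motif and 6 a GC box, against 17.8% and 32.7% of all 32851 windows of that length. The 10 windows were 50.8% to 80% G or C. The G and C content of all windows was not computed, so these shares are not compared at like composition. Of the 10 windows 4 are of Gnas, and 2 of these, which both hold the short CRE motif, share most of their bases. The full element TGACGTCA, which contains both short CRE motifs, was in none of the 10 and in 1.55% of all windows. These are matches of letters and not sites shown to be bound.

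In the diet comparison, 4 of the 6 tested genes passed at 8 weeks (3 higher and 1 lower in HFD), 3 at 20 weeks (1 higher, 2 lower) and 4 at 34 weeks (1 higher, 3 lower). Of all 10343 genes tested, 44.9%, 57.0% and 43.2% passed at the 3 times. The test was limma on log2(CPM + 1) in 1 fit of the 6 groups, two-sided, with Benjamini-Hochberg adjustment over all genes tested and an adjusted p under 0.05. CD and HFD mice did not overlap in Adra1a and Prkar2b at 8 weeks, in Adra1a and Adrb3 at 20 weeks and in Adrb3 at 34 weeks. Among all genes tested, 22.8%, 37.2% and 2.46% did not overlap at these times. This share was counted for the diet comparisons only, not for those between times.

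**Figure D2:**
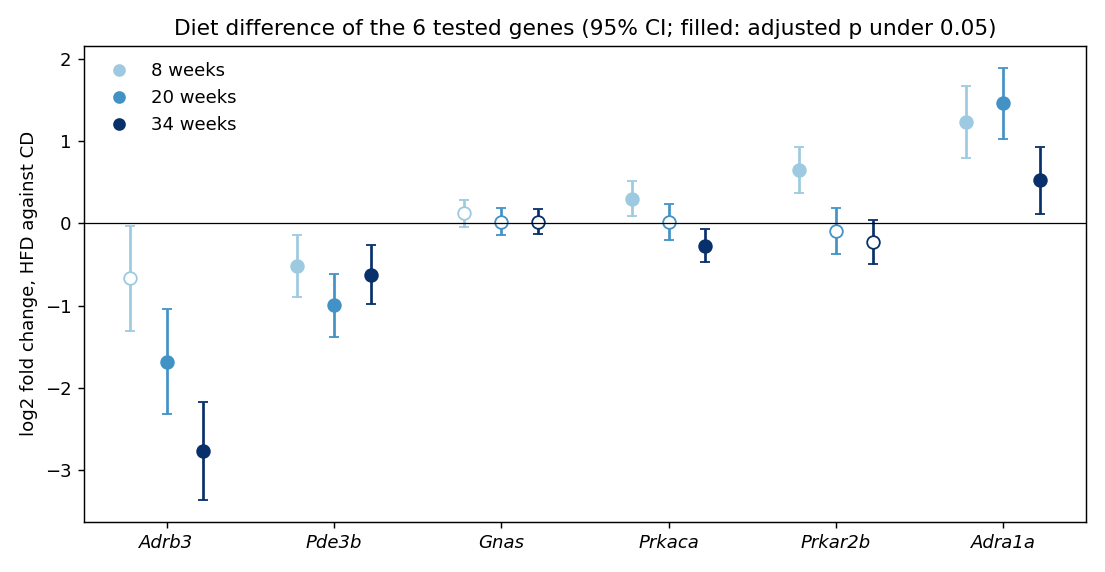
Log2 fold change of HFD against CD on the log2(CPM + 1) scale (y axis) for the 6 tested genes (x axis) at 8, 20 and 34 weeks (light to dark), with 95% confidence intervals from the fit. Filled points passed the test, and Adrb3 goes from -0.67 to -2.77 between 8 and 34 weeks while Adra1a stays above 0 and Gnas near it.

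Adrb3, the beta-3 receptor that is the main lipolytic adrenergic receptor of rodent fat, showed the largest diet difference of the 6 genes at 20 and 34 weeks. The gene lies at 8:27225776-27230845 (minus strand, GRCm38). At 8 weeks it ranged from 500 to 916 CPM in CD mice (median 813) and from 267 to 853 CPM in HFD mice (median 416). At 20 weeks the ranges were 529 to 960 CPM (median 683) and 139 to 357 CPM (median 205). At 34 weeks they were 216 to 971 CPM (median 440.0) and 44.7 to 107 CPM (median 68.0). The CD and HFD mice thus overlapped at 8 weeks and were apart at 20 and 34 weeks, where all 6 HFD mice were below all CD mice.

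The log2 fold change of Adrb3 was -0.67 ± 0.31 (SE) at 8 weeks, which did not pass (limma, adjusted p = 0.0800), with 4 of 6 HFD mice below all CD mice. It was -1.68 ± 0.31 at 20 weeks (adjusted p = 3.25e-05) and -2.77 ± 0.29 at 34 weeks (adjusted p = 7.91e-08), which is 3.21-fold and 6.82-fold lower. Without HFD mouse 2 the 8 week value was -0.85 and passed (adjusted p = 0.0274), and it also passed with only the groups compared (adjusted p = 0.0461), with array weights (-0.90, adjusted p = 0.00130) and with the replicate block (adjusted p = 0.0411). The order of the group means was CD at 8 weeks (746 ± 193 CPM, SD), CD at 20 weeks (708 ± 174), CD at 34 weeks (542 ± 294), HFD at 8 weeks (489 ± 213), HFD at 20 weeks (225 ± 78.1) and HFD at 34 weeks (71.8 ± 24.0). The ranges of neighbours among the first 4 of these overlapped, 4 of 6 HFD mice at 20 weeks were below all HFD mice at 8 weeks, and 6 of 6 HFD mice at 34 weeks were below all those at 20 weeks.

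Macrophage markers rose in the diet comparisons in which Adrb3 fell. From 20 to 34 weeks in HFD mice, where Adrb3 also fell, their mean went from 8.56 to 9.09 and 0 of 11 passed. With the macrophage marker mean as a covariate, the log2 fold change of Adrb3 was -0.12, -0.78 and -2.08 at 8, 20 and 34 weeks. The 20 week value no longer passed (adjusted p = 0.0747) while that at 34 weeks did (1.89e-05). Under this covariate 3754, 2731 and 583 of all 10343 genes passed at the 3 times. Relative to the mean of the adipocyte markers in each mouse Adrb3 was at -0.43, -1.15 and -2.23, and passed at 20 and 34 weeks (adjusted p = 0.000155 and 3.64e-08). The median of all genes on this reference was 0.347, 0.665 and 0.616. Within groups, r between Adrb3 and the macrophage marker mean was, in the order of time, -0.21, -0.58 and -0.81 on CD, and -0.69, -0.70 and -0.39 on HFD. Without the 2 mice farthest from the median of the marker mean it turned to 0.44 in CD mice at 8 weeks and 0.69 in HFD mice at 34 weeks. Within the 8 CD mice at 34 weeks Pearson's r between Adrb3 and the macrophage marker mean was -0.81 (exact permutation p = 0.0126) and Spearman's rho -0.81 (exact permutation p = 0.0218). Without the 2 farthest mice r was -0.64. In the same 8 mice r with the adipocyte marker mean was 0.83 (exact permutation p = 0.00618, adjusted p = 0.111). Over the 36 such relations computed (3 genes, 2 marker lists, 6 groups) the adjusted p for the macrophage markers were 0.129 and 0.196, and no relation had an adjusted p under 0.05.

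**Figure D3:**
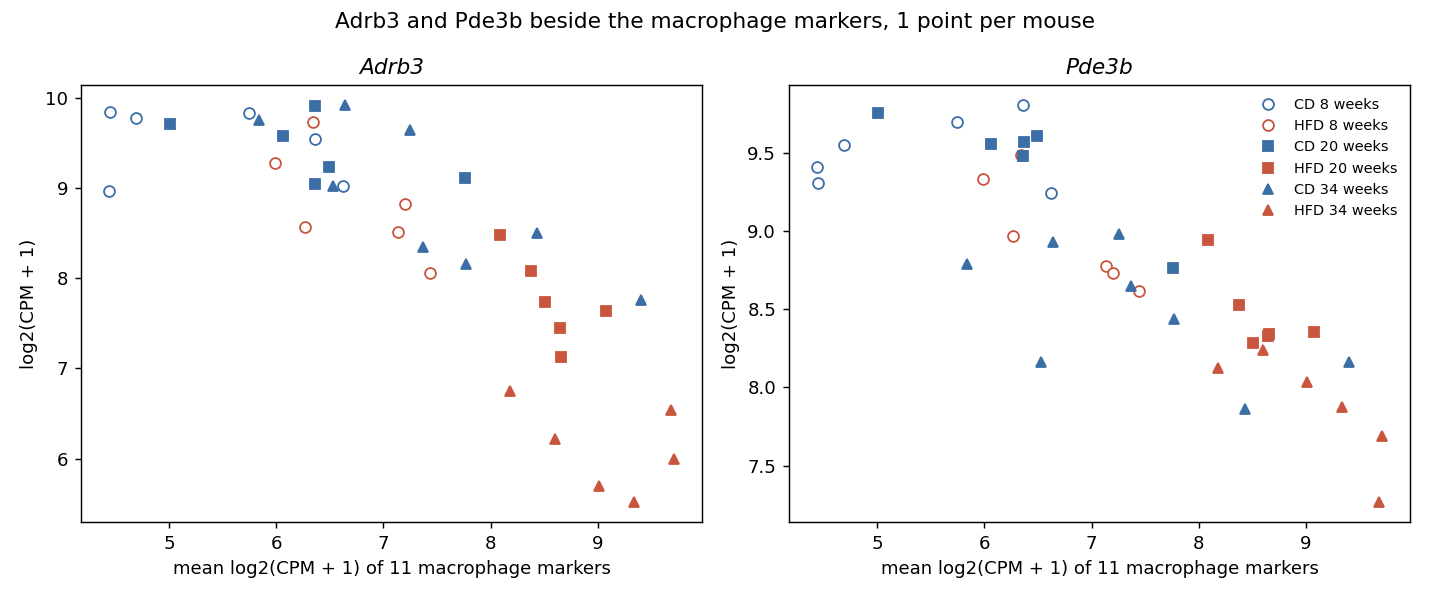
Log2(CPM + 1) of Adrb3 (left) and Pde3b (right) against the mean log2(CPM + 1) of 11 macrophage markers, 1 point per mouse, with CD in blue, HFD in red, open circles at 8, squares at 20 and triangles at 34 weeks. The HFD mice at 34 weeks lie at 8.18 to 9.71 on the x axis and lowest in Adrb3, and 1 CD mouse at 34 weeks reaches 9.40.

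Adrb1, the beta-1 receptor at 19:56722117-56725150 (plus strand), was 2.47 to 4.64 CPM in CD mice (median 3.34) and 0.905 to 3.71 CPM in HFD mice (median 1.98) at 8 weeks. At 20 weeks the ranges were 0.382 to 1.24 CPM and 0.608 to 1.99 CPM, and at 34 weeks 1.30 to 3.33 CPM and 0.993 to 3.27 CPM. Groups overlapped at each time. The mean difference in log2(CPM + 1), HFD minus CD, was -0.54, 0.11 and -0.29, with exact permutation p = 0.0433, 0.537 and 0.161 (two-sided). After adjustment over the 6 tests of Adrb1 and Adra2a these were 0.130, 0.644 and 0.322. In the fit of all genes without the filter on low values, Adrb1 was lower in HFD at 8 weeks (adjusted p = 0.0486). In that same fit Adrb1 in CD mice fell by 1.13 on the log2 scale from 8 to 20 weeks (adjusted p = 0.00111) and was 0.75 higher at 34 than at 20 weeks (adjusted p = 0.00201), and the CD mice at 20 weeks (5 to 17 reads) lay below all those at 8 weeks (28 to 49 reads).

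Adra2a, the antilipolytic alpha-2A receptor at 19:54045259-54048982 (plus strand), was at 0 to 1.03 CPM in all mice. In 4 of the 38 mice it had no read, which allows up to 3 reads. The medians in CD and HFD mice were 0.262 and 0.319 CPM at 8 weeks, 0.151 and 0.476 CPM at 20 weeks, and 0.204 and 0.214 CPM at 34 weeks. At 20 weeks 4 of 6 HFD mice were above all CD mice and the mean difference in log2(CPM + 1) was 0.35 (exact permutation p = 0.0238, adjusted p = 0.130 over the 6 tests). The fit without the low-value filter gave an adjusted p of 0.0336 there. Its levels of 0 to 6 reads in CD and 2 to 11 reads in HFD mice at 20 weeks are within a few reads of the limit of detection.

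Adra1a, the alpha-1A receptor, was higher with HFD. It lies at 14:66635251-66771240 on the plus strand. At 8 weeks it was 7.37 to 17.3 CPM in CD mice (median 11.2) and 22.7 to 29.8 CPM in HFD mice (median 27.3), and at 20 weeks 5.96 to 9.61 CPM (median 8.73) and 20.6 to 26.8 CPM (median 25.4). The diets did not overlap at either time. At 34 weeks the CD mice spread from 8.38 to 33.8 CPM (median 14.1) around the HFD mice at 16.2 to 25.6 CPM (median 22.4). The log2 fold change was 1.23 ± 0.21 (SE, adjusted p = 4.36e-05), 1.46 ± 0.21 (adjusted p = 1.18e-06) and 0.53 ± 0.20 (limma, adjusted p = 0.0328), that is 2.35-fold, 2.75-fold and 1.44-fold higher.

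The 34 week call of Adra1a was weak. On TMM library sizes the value was 0.44 (adjusted p = 0.0577), in edgeR's quasi-likelihood test 0.35 (adjusted p = 0.167), and it was lost without CD mouse 2, 4, 5 or 6 or HFD mouse 1, 2 or 3 at 34 weeks (0.42 to 0.50, adjusted p of 0.0514 to 0.0855). The call was also lost without the low-value filter, on median-of-ratios size factors, in DESeq2's test and with only the groups compared. Array weights and the macrophage covariate lost it too. Over all alternatives the value ran from 0.21 to 1.07. The log2 ratio of Adra1a to Adrb3 CPM was -6.06 ± 0.43 (SD) in CD and -4.08 ± 0.67 in HFD mice at 8 weeks, -6.38 ± 0.34 and -3.12 ± 0.49 at 20 weeks, and -5.03 ± 1.27 and -1.68 ± 0.69 at 34 weeks.

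Among further adrenergic receptors, Adra1d, the alpha-1D receptor, rose with HFD by 0.73 ± 0.24 at 8 weeks (limma, adjusted p = 0.0135) and 0.72 ± 0.24 at 20 weeks (adjusted p = 0.0106), and was at -0.13 at 34 weeks (adjusted p = 0.655). Adra1b had group means of 0.0991 to 1.21 CPM and Adra2b of 0.0143 to 0.182 CPM, and Adra2c had at most 1 read in any mouse, all below the filter on low values. Per mouse, Adra1b had 1 to 7 reads on CD and 3 to 10 on HFD at 8 weeks. At 20 weeks these were 0 to 5 and 7 to 20 reads, and at 34 weeks 1 to 9 and 6 to 23 reads. Adra1b was not part of the main test.

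Gnas, which codes for the stimulatory alpha subunit that couples beta receptors to adenylyl cyclase, did not pass in any of the 12 comparisons. It lies in an imprinted complex locus at 2:174284320-174346744 (plus strand), where several transcripts share exons. The groups ranged from 686 to 1054 CPM in CD mice at 34 weeks and from 851 to 924 CPM in CD mice at 20 weeks, the widest and the narrowest. The diet difference was 0.13 (95% interval -0.04 to 0.29), 0.02 (-0.14 to 0.18) and 0.02 (-0.13 to 0.18) at the 3 times. Relative to the adipocyte markers, which fell, it was 0.36, 0.55 and 0.56 and passed at all 3 times (adjusted p = 0.0257, 0.000452 and 0.000404). On this reference the median of all genes tested was 0.347, 0.665 and 0.616, so Gnas was near or below the median gene. With the macrophage covariate it passed at 8 weeks (0.25, adjusted p = 0.0100) and 20 weeks (0.23, adjusted p = 0.0495). From 8 to 34 weeks in HFD mice Gnas was at -0.15 (adjusted p = 0.128), and passed on TMM library sizes (-0.26, adjusted p = 0.0215), on median-of-ratios size factors, in edgeR's and DESeq2's tests and with array weights (-0.25 to -0.17, adjusted p of 0.00963 to 0.0272). From 8 to 20 weeks it passed with array weights (-0.12, adjusted p = 0.0291).

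Prkar2b, the type II beta regulatory subunit that is the main PKA regulatory subunit of white adipocytes, was high in the HFD mice at 8 weeks. The gene lies at 12:31958450-32061648 on the minus strand. At 8 weeks it was 657 to 859 CPM in CD mice (median 707) and 1030 to 1280 CPM in HFD mice (median 1163), and no HFD mouse was as low as a CD mouse. At 20 weeks the ranges were 595 to 947 CPM and 659 to 872 CPM, and at 34 weeks 564 to 892 CPM and 421 to 865 CPM, with the diets mixed at both times. The log2 fold change was 0.65 ± 0.14 (SE, limma, adjusted p = 0.000436), -0.09 ± 0.14 (adjusted p = 0.592) and -0.22 ± 0.13 (adjusted p = 0.157). The 8 week rise passed under every alternative and without any 1 mouse (0.53 to 0.89). Without HFD mouse 6 the 34 week value was -0.32 and passed (adjusted p = 0.0425). Relative to the adipocyte markers the 20 and 34 week values were 0.44 (adjusted p = 0.00122) and 0.32 (adjusted p = 0.00930), that is, of the opposite sign. Both lay below the median of all genes on this reference, which was 0.665 at 20 and 0.616 at 34 weeks.

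Prkaca, the alpha catalytic subunit of PKA at 8:83972978-83996444 (plus strand), had small diet differences of changing sign. At 8 weeks it was 123 to 157 CPM in CD mice (median 150.4) and 150.1 to 197 CPM in HFD mice (median 188), with 5 of 6 HFD mice above all CD mice. At 20 weeks the ranges were 131 to 183 CPM and 132 to 166 CPM, and at 34 weeks 175 to 258 CPM (median 216) and 134 to 229 CPM (median 178). The log2 fold change was 0.30 ± 0.11 (adjusted p = 0.0218), 0.02 ± 0.11 (adjusted p = 0.913) and -0.27 ± 0.10 (limma, adjusted p = 0.0305).

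The 8 week rise of Prkaca did not pass on TMM library sizes (0.20, adjusted p = 0.196), on median-of-ratios size factors (0.19, adjusted p = 0.190) or in edgeR's or DESeq2's test (adjusted p = 0.199 and 0.142), nor without CD mouse 6 (0.26, adjusted p = 0.0629) or HFD mouse 3 (0.28, adjusted p = 0.0537). The 34 week fall was lost with the macrophage covariate (-0.08, adjusted p = 0.718), under which 583 of all 10343 genes passed. Relative to the adipocyte markers the value was 0.27 (adjusted p = 0.0347), beside a median of 0.616 over all genes. The 34 week call was also lost without CD mouse 3, 4 or 6 or HFD mouse 2, 3 or 4 (-0.25 to -0.19, adjusted p of 0.0517 to 0.137).

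Scaling matters for differences of this size. On the CPM as deposited the median log2 fold change of all genes tested was 0.11, 0.14 and 0.074 at 8, 20 and 34 weeks, and on TMM library sizes 0.0058, -0.071 and -0.012. The split of all called genes moved from 3083 higher and 1565 lower to 2339 and 2212 at 8 weeks, from 3957 and 1937 to 2718 and 3356 at 20 weeks, and from 2840 and 1628 to 2320 and 2149 at 34 weeks. Of the calls of the 6 genes with diet, those of Prkaca at 8 weeks and Adra1a at 34 weeks were lost on TMM library sizes and the others passed.

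Pde3b, the insulin-regulated phosphodiesterase at 7:114415222-114537938 (plus strand), was lower with HFD at all 3 times. It was 606 to 895 CPM in CD mice (median 713) and 392 to 715 CPM in HFD mice (median 468) at 8 weeks. At 20 weeks the ranges were 435 to 864 CPM (median 755) and 311 to 491 CPM (median 325), and at 34 weeks 232 to 504 CPM (median 373) and 153 to 302 CPM (median 247). The diets overlapped at each time, at 20 weeks by 1 low CD mouse. The log2 fold change was -0.52 ± 0.19 (adjusted p = 0.0248), -0.99 ± 0.19 (adjusted p = 3.93e-05) and -0.62 ± 0.18 (limma, adjusted p = 0.00498), that is 1.43-fold, 1.99-fold and 1.54-fold lower.

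With the macrophage covariate Pde3b was at -0.21, -0.48 and -0.23 and did not pass at any time (adjusted p = 0.370, 0.0749 and 0.475). Of all 10343 genes 3754, 2731 and 583 passed under this covariate. Relative to the adipocyte markers Pde3b was at -0.28 (adjusted p = 0.0938), -0.47 (adjusted p = 0.00289) and -0.08 (adjusted p = 0.549). The median of all genes was then 0.347, 0.665 and 0.616. The 8 week call was also lost without CD mouse 5 or HFD mouse 3, 4 or 6 (-0.48 to -0.45, adjusted p of 0.0573 to 0.0723).

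Time on chow moved 3 of the 6 genes. From 8 to 20 weeks in CD mice none of the 6 passed, against 3.58% of all genes tested. From 20 to 34 weeks 3 passed, against 62.5% of all genes: Prkaca rose by 0.53 ± 0.10 (limma, adjusted p = 3.48e-05), Adra1a rose by 0.74 ± 0.20 (adjusted p = 0.00202) and Pde3b was at -0.96 ± 0.18 (adjusted p = 2.30e-05). From 8 to 34 weeks Prkaca (0.54 ± 0.10, adjusted p = 2.62e-05) and Pde3b (-1.005 ± 0.18, adjusted p = 1.18e-05) passed, against 64.7% of all genes. Neither gene overlapped between the 8 CD mice at 34 weeks and the 6 at 8 weeks, and how many of all genes did so was not counted. Pde3b in CD mice at 34 weeks (median 373 CPM) was near that of HFD mice at 20 weeks (median 325 CPM). Adrb3 did not pass from 20 to 34 weeks (-0.55 ± 0.29, adjusted p = 0.104) but did without CD mouse 4 (-0.69, adjusted p = 0.0358) or 6 (-0.67, adjusted p = 0.0461) at 34 weeks. Adra1a from 8 to 34 weeks (0.39, adjusted p = 0.0888) passed without CD mouse 3 at 8 weeks or 4, 5 or 6 at 34 weeks (0.46 to 0.51, adjusted p of 0.0284 to 0.0449). Adrb3 did not pass from 8 to 34 weeks (-0.61 ± 0.29, adjusted p = 0.0662). It did on TMM library sizes (-0.74, adjusted p = 0.0402), on median-of-ratios size factors and with array weights (-0.84, adjusted p = 0.00880). It also passed without CD mouse 1 or 6 at 8 weeks or CD mouse 4, 6 or 8 at 34 weeks (-0.76 to -0.71, adjusted p of 0.0214 to 0.0468). Over all alternatives, however, this value of Adrb3 ran from -0.84 to 0.21, so that its sign was not stable. That from 20 to 34 weeks ran from -0.75 to -0.11. In CD mice the macrophage marker mean rose by 1.06 from 20 to 34 weeks and by 2.02 from 8 to 34 weeks. Its part was not tested.

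In HFD mice Adrb3 and Pde3b were lower at each later time on the CPM as deposited. From 8 to 20 weeks 4 of the 6 genes passed, against 36.5% of all genes, and all 4 were lower: Adrb3 (-1.08 ± 0.31, limma, adjusted p = 0.00810), Prkar2b (-0.60 ± 0.14, adjusted p = 0.00138), Pde3b (-0.52 ± 0.19, adjusted p = 0.0297) and Prkaca (-0.28 ± 0.11, adjusted p = 0.0414). With the macrophage covariate none of these 4 passed, and 426 of all 10343 genes did, against 3772 without it. The mean of the adipocyte markers fell by 0.449 over this step. Relative to them Adrb3 still passed, while Pde3b was at -0.07 and Prkar2b at -0.15 and neither passed. The median of all genes on this reference was 0.461. The calls of Pde3b and Prkaca were lost without, in turn, HFD mouse 1 or 2 at 8 weeks or 1, 3, 5 or 6 at 20 weeks (Pde3b, -0.50 to -0.42) and HFD mouse 1, 3, 4 or 6 at 8 weeks or 2, 4, 5 or 6 at 20 weeks (Prkaca, -0.28 to -0.25). From 20 to 34 weeks 2 passed, against 30.2% of all genes: Adrb3 at -1.63 ± 0.31 (adjusted p = 0.000355) and Pde3b at -0.59 ± 0.19 (adjusted p = 0.0178), which was lost without HFD mouse 4 at 20 weeks (-0.49) or HFD mouse 4 at 34 weeks (-0.47). Prkaca from 20 to 34 weeks (0.25, adjusted p = 0.0769) passed without HFD mouse 2 (0.29, adjusted p = 0.0444) or 3 (0.33, adjusted p = 0.0176) at 34 weeks. From 8 to 34 weeks 3 passed, against 52.5% of all genes: Adrb3 at -2.71 ± 0.31, Pde3b at -1.11 ± 0.19 and Prkar2b at -0.86 ± 0.14. With the macrophage covariate the Pde3b value was -0.56 and did not pass (adjusted p = 0.0582), where 1550 of all 10343 genes did.

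Whether the diet difference itself changed with time was tested by interaction terms. Between 8 and 34 weeks 3 of the 6 passed, against 28.8% of all genes: the diet difference moved by -2.10 ± 0.43 in Adrb3 (limma, adjusted p = 0.000551), by -0.87 ± 0.19 in Prkar2b (adjusted p = 0.000935) and by -0.57 ± 0.15 in Prkaca (adjusted p = 0.00413). Relative to the adipocyte markers the Prkaca value was -0.27 and did not pass (adjusted p = 0.287), beside a median of 0.299 over all genes. Between 8 and 20 weeks Prkar2b passed (-0.74 ± 0.20, adjusted p = 0.0293), against 4.49% of all genes, and this was lost without HFD mouse 4 or 6 at 8 weeks, CD mouse 3 or 5 at 20 weeks or HFD mouse 5 at 20 weeks (-0.73 to -0.69, adjusted p of 0.0508 to 0.0612). Between 20 and 34 weeks Adra1a passed (-0.93 ± 0.29, adjusted p = 0.0366), against 10.5% of all genes, and was lost without any of 9 mice, namely CD mouse 3 or 4 and HFD mouse 1, 3 or 6 at 20 weeks and CD mouse 1 or 8 and HFD mouse 4 or 6 at 34 weeks (-0.94 to -0.85, adjusted p of 0.0514 to 0.0772). The step of Adrb3 from 20 to 34 weeks (-1.09 ± 0.43) did not pass (adjusted p = 0.0937), but did without CD mouse 5 at 34 weeks (-1.25, adjusted p = 0.0388). The step of Adra1a from 8 to 34 weeks (-0.71, adjusted p = 0.0664) passed without CD mouse 3 at 8 weeks or CD mouse 4, 5 or 6 at 34 weeks (-0.83 to -0.78, adjusted p of 0.0306 to 0.0356).

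Beyond the 8 genes, 117 further genes of the pathway in 12 lists were examined, of which 89 were tested. With HFD 29 rose and 19 fell at 8 weeks, 39 rose and 22 fell at 20 weeks, and 30 rose and 16 fell at 34 weeks, that is 53.9%, 68.5% and 51.7% of the 89, beside the shares of all genes given above. The median log2 fold change of the 89 was 0.11, 0.25 and 0.21. One gene, Rgs2, stands in 2 of the lists.

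**Figure D4:**
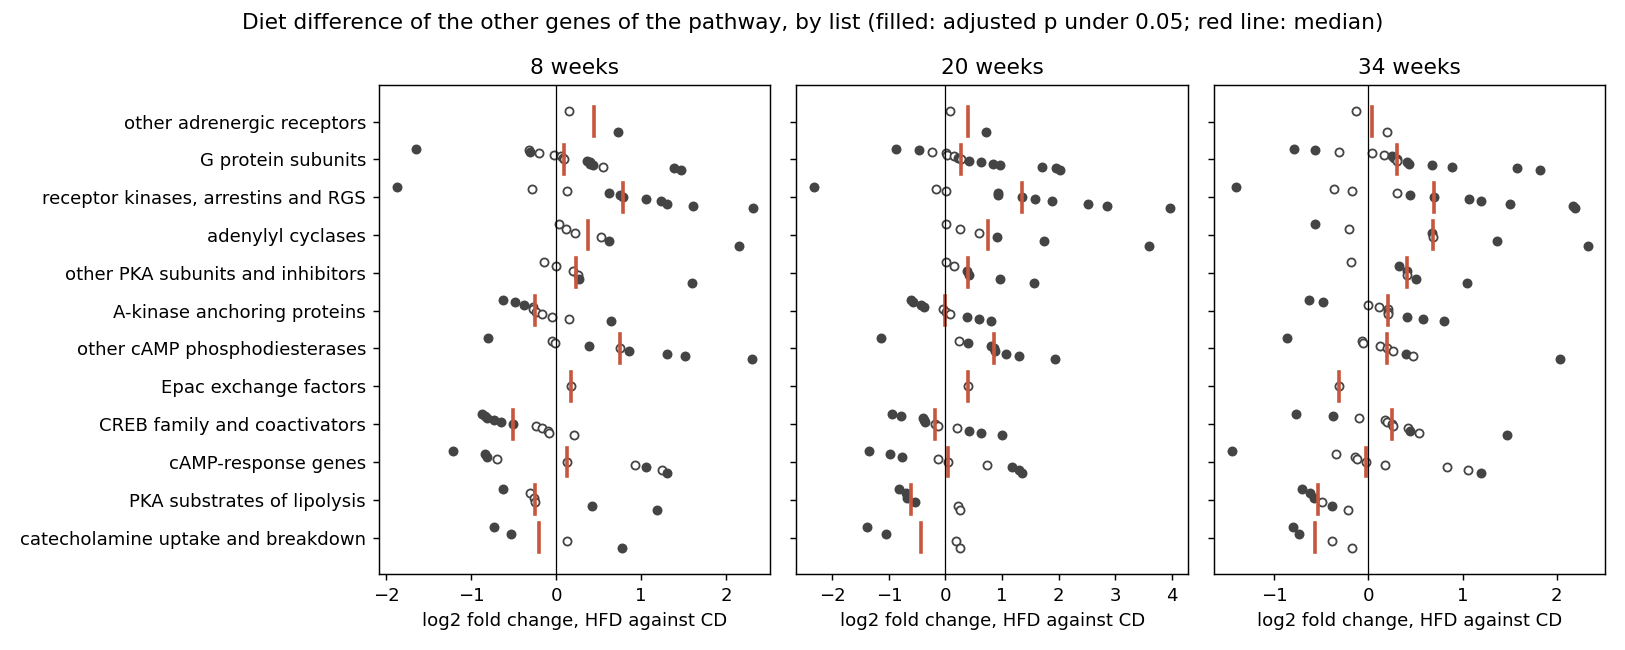
Log2 fold change of HFD against CD (x axes) for the tested genes of 12 pathway lists (rows) at 8, 20 and 34 weeks, 1 point per gene, filled where the adjusted p was under 0.05, with the median of the list in red. The lipolysis list lies below 0 at 20 and 34 weeks (medians -0.61 and -0.53), and the list of receptor kinases, arrestins and RGS proteins above 0 at all 3 times (0.78, 1.35 and 0.70).

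Of 11 tested receptor kinases, arrestins and RGS proteins, which switch off receptors and G proteins, 8, 8 and 7 rose with HFD at the 3 times and 1 fell at each. Of all 10343 genes tested 3083, 3957 and 2840 rose, an excess over falls that shrank or turned on TMM library sizes as given above. The median of the list was 0.78, 1.35 and 0.70, beside 0.11, 0.14 and 0.074 over all genes. Rgs1, an RGS protein of leukocytes, rose most, from 6.61 to 34.5 CPM at 8 weeks, 12.9 to 165 CPM at 20 weeks and 109 to 396 CPM at 34 weeks (2.31, 3.97 and 2.19 on the log2 scale). The macrophage markers rose in the same comparisons, and their part in this rise was not tested. Rgs16 fell by 1.88, 2.32 and 1.40 on the log2 scale (limma, adjusted p = 0.000363, 9.42e-06 and 0.00308). Of 15 tested G protein subunits 6, 8 and 9 rose and 2, 2 and 2 fell, and Gng11, a gamma subunit, rose by 1.38, 1.70 and 1.58.

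Adenylyl cyclases make the cAMP. Of the 6 tested, 2, 3 and 3 rose and 0, 0 and 1 fell. Adcy7, a cyclase of blood cells, rose from 8.21 to 41.7 CPM at 8 weeks, 16.3 to 171 CPM at 20 weeks and 44.3 to 187 CPM at 34 weeks (2.15, 3.60 and 2.33 on the log2 scale). As for Rgs1, macrophage markers rose in the same comparisons, and their part was not tested. Per kilobase of exon the cyclases with the highest mean over all mice were Adcy5 (41.7 CPM) and Adcy6 (30.5 CPM), and these were chosen after their values were seen. Adcy5 did not pass with diet at any time (0.11, 0.26 and -0.21), and Adcy6 did not pass at 8 or 20 weeks (0.03 and 0.01) and fell by 0.57 at 34 weeks (limma, adjusted p = 0.00109).

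Among the 6 tested other PKA subunits and inhibitors 2, 4 and 4 rose and none fell. Pkia, an inhibitor peptide of PKA, rose by 1.60 ± 0.32 at 8 weeks (limma, adjusted p = 0.000196) and 1.57 ± 0.32 at 20 weeks (adjusted p = 8.91e-05) and was at 0.41 ± 0.30 at 34 weeks (adjusted p = 0.259). Per kilobase of exon Prkar2b made up 75.8 ± 1.33% (SD) of the 4 regulatory subunits in CD and 82.7 ± 1.04% in HFD mice at 8 weeks, 77.2 ± 3.22% and 73.7 ± 3.31% at 20 weeks, and 75.3 ± 5.06% and 67.3 ± 8.86% at 34 weeks. The ratio of regulatory to catalytic subunit CPM per kilobase was 4.08 ± 0.47 in CD and 4.84 ± 0.22 in HFD mice at 8 weeks, 4.41 ± 0.65 and 4.15 ± 0.35 at 20 weeks, and 2.91 ± 0.46 and 3.17 ± 0.31 at 34 weeks. Of the 10 tested A-kinase anchoring proteins, which tether PKA to places in the cell, 1, 3 and 3 rose and 3, 4 and 2 fell. Akap12 rose at 8 and 20 weeks (0.64 and 0.81) and Akap7 fell at 20 and 34 weeks (by 0.60 and 0.63).

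Of 9 tested phosphodiesterases other than Pde3b, 5, 7 and 2 rose with HFD and 1 fell at each time, and the median log2 fold change was 0.75, 0.85 and 0.20, beside 0.11, 0.14 and 0.074 over all genes. The endothelial and mural markers rose at the same times, and their part was not tested. Pde2a rose from 22.7 to 117 CPM at 8 weeks and from 31.4 to 117 CPM at 20 weeks (2.30 and 1.94, limma, adjusted p = 1.22e-05 and 2.94e-05), and was at 0.48 at 34 weeks (adjusted p = 0.254). Pde1a fell by 0.80, 1.14 and 0.87. Pde3b made up 69.4 ± 4.10% (SD) of the summed CPM per kilobase of itself and the 15 other listed phosphodiesterases in CD and 49.1 ± 12.03% in HFD mice at 8 weeks, 63.2 ± 6.90% and 33.9 ± 4.03% at 20 weeks, and 46.9 ± 13.0% and 31.9 ± 5.71% at 34 weeks. The Epac factor Rapgef3, a cAMP target other than PKA, did not pass at any time (0.17, 0.40 and -0.31).

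Downstream of PKA, the 6 lipolysis genes were all tested: 2, 0 and 0 rose and 1, 4 and 4 fell. Pnpla2, the adipose triglyceride lipase, fell by 0.63, 0.82 and 0.58 (limma, adjusted p = 0.0143, 0.00112 and 0.0162). Lipe and Plin1 of this list are also 2 of the 7 adipocyte markers. In the CREB list 0, 3 and 2 of 11 rose and 6, 5 and 2 fell, with Sik1 at 0.21, 1.00 and 1.47 and Sik2 at -0.65, -0.95 and -0.77. Of 9 tested genes that cAMP is known to induce, 2, 3 and 1 rose and 3, 3 and 1 fell, so that the list had no common direction. Rgs2 rose by 1.30, 1.35 and 1.20, and Pck1, the key enzyme of glyceroneogenesis, was at -0.69 (limma, adjusted p = 0.124), -1.35 and -1.45. Of 4 tested genes of catecholamine uptake and breakdown, 1, 0 and 0 rose and 2 fell at each time, and Maob, a monoamine oxidase, fell by 0.73, 1.39 and 0.80 (limma, adjusted p = 0.000623, 5.46e-08 and 0.000174).

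The genes most like each member in level over the 38 mice are given as a description, by Pearson's r of log2(CPM + 1), where the mice share groups, marker levels and libraries. Closest to Adrb3 were Agt (0.95), Esr1 (0.93) and Aacs (0.92). Closest to Pde3b were Sik2 (0.96), Acss3 (0.96) and Aldh6a1 (0.95), and closest to Prkaca were Nudt19 (0.93), Gpt (0.92) and Phb (0.91). Adra1a went most closely with Map1a (0.91), Slc5a7 (0.91) and Phactr2 (0.90), and Prkar2b with Hsdl2 (0.91), Syap1 (0.90) and Slc18b1 (0.86). The highest values were lower for Adrb1 (Parp16 0.82, Fam160b2 0.75, Blcap 0.71), Gnas (Mpv17 0.78, Setd3 0.73, Hcn2 0.73) and Adra2a (Mob1b 0.65, Pcdh19 0.64, Rc3h2 0.64). Among the 8 genes themselves the highest r was 0.82, between Adrb3 and Pde3b.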

How the data were processed

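The authors aligned the reads to mm10 with STAR 2.5.2b, counted them on exons with featureCounts (Subread 1.5.1, GENCODE vM2) and, per their methods, used edgeR and limma. The deposited values are CPM in 38 columns, 1 per mouse, into which the authors merged 114 labelled samples (3 technical replicates a mouse). Each column sums to 1000000, so no TMM factor is visible. All values (100%) were whole reads within 0.1 reads, and the recovered reads served DESeq2 1.42.0, edgeR 4.0.16 and size factors. The main test was limma 3.58.1 (R 4.3.3) on log2(CPM + 1) with 32 residual degrees of freedom. Fold changes understate low genes. The fit was tested on simulated data. Replicates are mice, and reads without molecular identifiers cover counting error only. Exon lengths came from GENCODE M21, positions from RefSeq. Named genes were the 8 members, the other adrenergic receptors, and per list the highest and lowest mean diet difference among genes called at 2 or more times with 1 sign. The members and lists were chosen with earlier results of these data known. Alternatives were another pseudocount, no filter, other scalings and tests, only the groups compared, array weights, a replicate block, marker references and each mouse left out. Adgre1, Grk2 and Grk3 were not analysed here. One further receptor of the lists is not reported here.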

Additional observations from a re-analysis of the deposited data

Results flagged for a closer look

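Single mice stood apart from their group in 20 of 168 group values over 28 genes (Dixon's test at the 95% level), 6 of them in the 48 group values of the 8 genes, where chance gives about 1 in 20. On chow at 20 weeks, mouse 4 was low in Adrb1 (0.382 CPM) and Adra1a (5.96 CPM), mouse 1 was low in Pde3b (435 CPM) and Sik2 (464 CPM) and high in Rgs1 (45.3 CPM) and Adcy7 (44.5 CPM), mouse 3 was high in Rgs2 (32.4 CPM) and mouse 6 in Adra1b (0.372 CPM). HFD mouse 4 at 20 weeks was high in Pde3b (491 CPM) and Sik2 (536 CPM). Adra2a was high in HFD mouse 5 at 8 weeks (1.03 CPM) and HFD mouse 2 at 34 weeks (0.771 CPM). At 8 weeks the others were Adra2b in CD mouse 5 (0.0860 CPM) and HFD mouse 6 (0.349 CPM), Gng11 (3.89 CPM) and Pde2a (45.4 CPM) in CD mouse 4, and Rgs16 in CD mouse 3 (170.4 CPM) and HFD mouse 2 (68.3 CPM). At 34 weeks they were Adra2c in CD mouse 1 (0.0891 CPM) and Pck1 in CD mouse 6 (3859 CPM). The values of Adra2b in CD mouse 5 and of Adra2c in CD mouse 1 are 1 read each in groups otherwise at 0. Such a value is flagged whatever its size. Groups of Adra2c without any read are among the 168 and could not be flagged. The rate expected by chance does not hold for genes of 0 to a few reads.

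The diet difference changed with time by the interaction test of limma in 5 results of the 8 genes: between 8 and 34 weeks in Adrb3 (-2.10 on the log2 scale), Prkar2b (-0.87) and Prkaca (-0.57), between 8 and 20 weeks in Prkar2b (-0.74) and between 20 and 34 weeks in Adra1a (-0.93). Among the other named genes it changed between 8 and 34 weeks in Adra1d (-0.85), Pkia (-1.18), Akap7 (-0.46) and Pde2a (-1.83), and between 20 and 34 weeks in Pde2a (-1.47).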

How the results depend on the processing

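The log2 fold changes of the 6 tested genes were taken under 11 alternatives and at their lowest and highest value with 1 mouse left out. Of these values 806 stayed on their side of the threshold (61 of them not called and of changed sign), 45 lost a call, 42 gained one and 7 reversed, and the cause was not tested. The 7 were all relative to the adipocyte markers: Prkar2b with diet at 20 (0.44) and 34 weeks (0.32), Prkaca with diet at 34 weeks (0.27), and in HFD mice Gnas (0.31) and Prkaca (0.17) from 8 to 20 weeks and Gnas (0.40) and Prkaca (0.52) from 8 to 34 weeks. On this reference the median of all genes was 0.665 and 0.616 with diet at 20 and 34 weeks. In HFD mice it was 0.461 from 8 to 20 and 0.609 from 8 to 34 weeks. The 7 values lay below these medians. The counts that follow have in brackets the number of all 10343 genes that passed. The number of genes that passed with diet at 20 weeks was 6 relative to the adipocyte markers (7759). At 34 weeks it was 2 with only the groups compared (2457), 2 with array weights (4103) and 1 with the macrophage covariate (583). In CD mice it was 1 from 8 to 20 weeks without the low-value filter (Adrb1, beside 407 of 21166 genes), and from 8 to 34 weeks 4 with array weights (6863) and 4 relative to the adipocyte markers (5856). In HFD mice it was 0 with the macrophage covariate (426) and 2 relative to the adipocyte markers (5047) from 8 to 20 weeks, and 5 relative to the adipocyte markers from 8 to 34 weeks (6983). For the change of the diet difference from 8 to 20 weeks it was 2 with only the groups compared (2698), 3 with array weights (4263) and 0 relative to the adipocyte markers (10). For that from 20 to 34 weeks it was 0 without the filter (1028 of 21166 genes), with only the groups compared (723) and relative to the adipocyte markers (240). It was 2 with DESeq2 (1502), array weights (3407) or the macrophage covariate (1580).

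With each mouse left out in turn, the counts ranged from 2 to 5 with diet at 8 weeks (2 without HFD mouse 3), from 2 to 5 with diet at 34 weeks (2 without CD mouse 4 or 6 or HFD mouse 2 or 3), from 2 to 4 in CD mice from 8 to 34 weeks (4 without CD mouse 4 or 6 at 34 weeks), from 2 to 4 in HFD mice from 8 to 20 weeks (2 without HFD mouse 1 at 8 weeks or 5 or 6 at 20 weeks), from 1 to 3 in HFD mice from 20 to 34 weeks (1 without HFD mouse 4 of either time), from 0 to 1 for the diet difference from 8 to 20 weeks and from 0 to 2 for that from 20 to 34 weeks.

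The labels give groups the same mouse numbers. Over 18 same-numbered pairs the correlation of deviations was -0.51 to 0.53, with 8 over 0.1. Such correlations cannot show whether the numbers pair the mice, and the labels do not say. With the replicate block the counts were 5, 3 and 3 with diet at 8, 20 and 34 weeks, and 0, 0 and 3 for the changes of the diet difference from 8 to 20, 20 to 34 and 8 to 34 weeks. Of all 10343 genes 4411, 5698 and 4320 passed with diet, and 114, 711 and 2876 for these changes. Depth limits Adrb1 and Adra2a, at 0 to 49 reads per mouse.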
